A study of Mus musculus with 13 samples.

Results

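Epithelial cells hold to each other through E-cadherin and related adhesion molecules and carry a keratin skeleton. In an epithelial to mesenchymal transition they lose these and gain vimentin, fibronectin and motility under transcription factors of the ZEB, SNAIL and TWIST families, several of which repress epithelial genes through a DNA motif called the E-box. Mammary carcinoma cells often hold intermediate mixtures of both states, and basal keratins such as keratin 14 mark a further, basal epithelial state. The genes described here are 10 markers and regulators of these states, chosen by name. They are the adhesion genes *Cdh1* and *Epcam*, the keratins *Krt8*, *Krt18* and *Krt14*, the mesenchymal genes *Vim* and *Fn1*, and the transcription factors *Zeb1*, *Snai1* and *Snai2*. Of these 10, 9 were listed among the 13222 genes of the table and all 9 were among the 12319 genes tested. *Snai2* was not analysed here.

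The RNA came from 4T1-Thy1.1 cells, a mouse mammary carcinoma line of BALB/c origin that carries a Thy1.1 transgene, so every group shares that transgene. Cells in culture were left untreated (control, n = 3), or received doxorubicin (DOX, 200 ng/mL, n = 4), DOX with recombinant mouse IL-17A (25 ng/mL, DOX+IL-17A, n = 3) or IL-17A alone (n = 3) for 48 hours. DOX is a topoisomerase poison that breaks DNA, and IL-17A is an inflammatory cytokine. All libraries derive from 1 cell line in culture, and the methods speak of biological replicates for the study in general. Which of these libraries came from separate cultures is not stated, so p-values measure the spread between these libraries.

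The 3' ends of transcripts were read, so a value is a count of transcript ends relative to the scaled size of its library, and is not divided by transcript length. Reads on listed genes ranged from 4445592 to 16930600 per library, and 3 reads, taken as the lowest detectable amount, were worth 0.183 to 0.613 normalized units. Control replicate 1 stood apart on the second principal component, and its summed level of the 5 listed of 7 fibroblast markers was 143, against 27.9 to 78.1 in the other libraries. DOX replicate 1 had summed levels of 206 for 6 muscle markers and of 66.5 for the 3 listed of 5 red blood cell markers, against at most 30.5 and 14.4 elsewhere. Of 6 immune markers 3 were listed, summing to 10.5 to 20.8 with DOX and to 1.86 to 6.70 in control. The sums were 9.61 to 10.05 with DOX+IL-17A, and IL-17A replicate 2 reached 14.2. Most of the difference between DOX and control lay in *Cd68*, with means of 12.9 and 3.47 (log2 fold change 2.01, adjusted p = 0.0164, limma). The means of *Ptprc* were 1.09 and 0.685 (adjusted p = 0.443, limma), and those of *Itgam*, which was not tested, were 0.843 and 0.431. With DOX+IL-17A the mean of *Ptprc* was 3.01, higher than in control (1.33, adjusted p = 0.0225, limma) and than with IL-17A alone (1.76, adjusted p = 0.00744). *Cd68* did not pass in these comparisons (adjusted p = 0.181 and 0.911). Of 5 tested fibroblast markers, *Dcn* alone passed there (1.302, adjusted p = 0.0256, and 1.52, adjusted p = 0.0157). None of the 4 endothelial markers was listed. The part of these markers in the results below was not tested. Values without control replicate 1, or without both it and DOX replicate 1, are given beside several of the genes concerned. Epithelial markers were present in every library, *Thy1* had between 63.6 and 179 units in every library, and *Vim* was high throughout. Every library thus held both epithelial and mesenchymal transcripts, and bulk values do not show whether single cells held both. In bulk RNA, fewer cells of a type and less RNA per cell cannot be told apart.

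A gene was called when its adjusted p in limma was below 0.05 and its fold change, from the log2 value of that fit, above 2. Folds printed for single genes below are ratios of group means, or of pooled reads for *Zeb1*, and were not used for calls. With DOX alone, 1 of the 9 genes was called, *Epcam*, which fell, against 15.3% of all genes tested (9.15% higher and 6.18% lower). At the adjusted p alone 5 of 9 passed, against 22.1% of all genes (12.4% higher and 9.71% lower), namely *Epcam*, *Krt8*, *Krt18* and *Fn1* downward and *Krt14* upward. That count was 1 without control replicate 5 (*Epcam*), 2 without DOX replicate 3 (*Epcam* and *Krt8*) and 3 without DOX replicate 4 (*Epcam*, *Krt8* and *Krt18*). Without control replicate 3 or DOX replicate 1 or 2 the number called was 2 instead of 1, with *Snai1* as the second in the first case and *Krt14* in the others. The mesenchymal gene *Vim* (log2 fold change -0.52) and the transcription factor genes *Zeb1* (0.88) and *Snai1* (1.16) did not pass. The libraries of the 2 groups did not overlap for 8 of 9 genes, 3 above and 5 below control, against 33.7% of all genes (18.5% above and 15.2% below). The median log2 fold change of the 9 genes was -0.67, beside 0.09 over all genes tested. With DOX+IL-17A against control 2 of 9 were called, *Epcam* and *Krt18*, both downward (12.9% of all genes, 6.95% higher and 5.95% lower), 3 passed the adjusted p alone (17.7%), and 6 did not overlap (30.1%). DOX+IL-17A against IL-17A alone called 3 of 9, *Epcam* and *Krt18* downward and *Krt14* upward (9.84% of all genes, 4.92% in each direction). At the adjusted p alone 4 passed there (13.3%), which was 2 without DOX+IL-17A replicate 2 or 5 or IL-17A replicate 2 or 3, and 5 of 9 did not overlap (32%). The comparisons with control share the control libraries and those of DOX+IL-17A share its libraries, so they are not independent. Adding IL-17A to DOX called 0 of 9 (0.438% of all genes, 54) and left all 9 overlapping (10.3% did not overlap), and IL-17A alone called 0 of 9 (0.00812%, 1 gene).

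**Figure D1:**
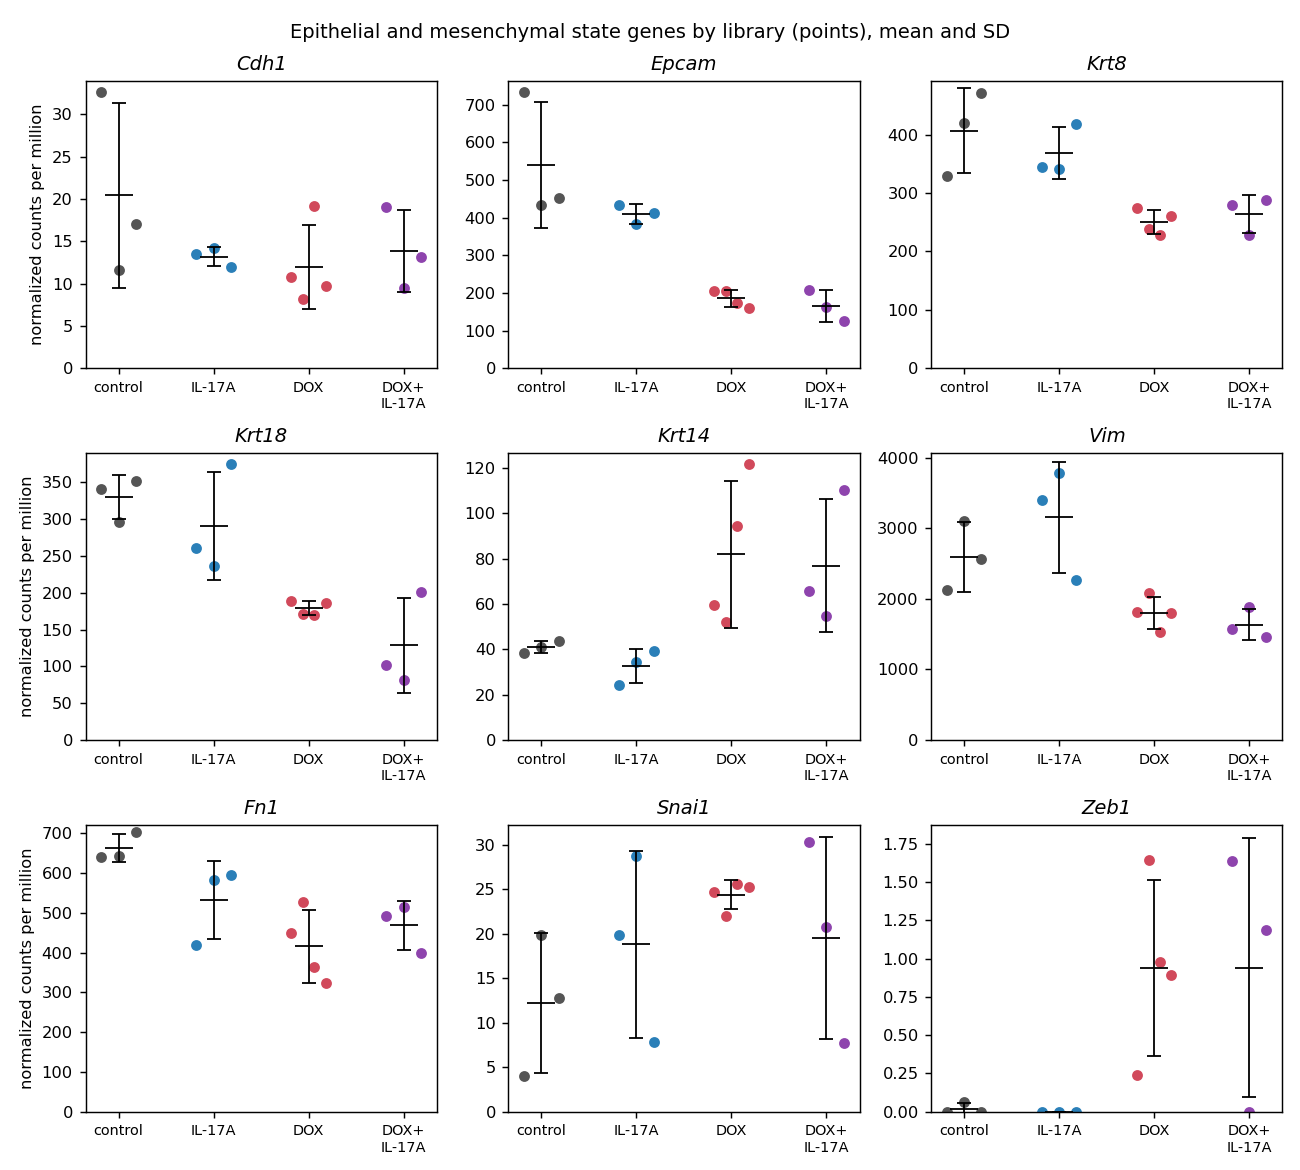
Normalized values (TMM-normalized CPM) of the 9 listed genes in each library (points), with the mean and SD of each condition (horizontal mark and bar), on linear axes that start at 0. The DOX and DOX+IL-17A points of *Epcam* lie between 124 and 208, below every control and IL-17A point.

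*Epcam* encodes an epithelial adhesion and signaling glycoprotein. Its level was 733, 432 and 453 in the control libraries and 206, 205, 173 and 161 with DOX. DOX+IL-17A gave 208, 163 and 124, and IL-17A alone gave 434, 383 and 413. The groups without DOX and the groups with DOX were fully apart, while control overlapped IL-17A and DOX overlapped DOX+IL-17A. The mean fell from 539 ± 168 (SD, n = 3) in control to 186 ± 22.7 (n = 4) with DOX, which was 2.90-fold lower, with a log2 fold change of -1.50 ± 0.22 (SE) and an adjusted p of 0.000385 in limma. DOX+IL-17A was 3.27-fold lower than control (log2 fold change -1.69 ± 0.24, adjusted p = 0.000396, limma) and 2.49-fold lower than IL-17A alone (-1.34 ± 0.24, adjusted p = 0.00261). All 3 differences were called in each of 23 alternative analyses. Control replicate 1 held the highest value, and without it the log2 fold change with DOX was -1.25. Adding IL-17A to DOX gave a log2 fold change of -0.19, with a 95% confidence interval from -0.66 to 0.27, and the change with IL-17A did not differ detectably with and without DOX (interaction 0.16, interval -0.53 to 0.84).

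*Epcam* lies on chromosome 17 from 87635979 to 87651129 on the plus strand (GRCm38, the mm10 build). The 250 bases before its start site in RefSeq, chr17:87635729-87635978 on the plus strand of GRCm38.p6, are shown because *Epcam* was called in all 3 comparisons of cells with and without DOX and because the SNAIL and ZEB factors measured here bind E-boxes. Capitals mark the E-box CAGGTG or its reverse complement CACCTG.
Epcam upstream: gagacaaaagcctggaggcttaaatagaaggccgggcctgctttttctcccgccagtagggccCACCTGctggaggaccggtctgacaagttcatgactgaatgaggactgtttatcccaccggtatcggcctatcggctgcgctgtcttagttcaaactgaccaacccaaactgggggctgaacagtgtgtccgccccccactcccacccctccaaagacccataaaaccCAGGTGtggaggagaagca
This stretch held 2 matches, 187 and 19 bases before the start site. Of 32851 RefSeq promoter windows of the same length, searched on both strands, 17.2% held at least 1 match and 2.06% held 2 or more. Windows of 6 of the 10 genes were searched: *Epcam*, *Krt8*, *Krt18*, *Krt14*, *Vim* and *Snai1*. *Krt8*, *Krt18* and *Snai1* held 1 match each, and *Vim* and *Krt14* held 0. A match is only the presence of these letters, and the annotated start sites of RefSeq and GENCODE were 36 bases apart for *Krt18*, 140 for *Krt8*, 384 for *Vim* and 1518 for *Krt14*. By the GENCODE start, the match of *Krt8* lies inside its gene. The whole windows of *Vim* and *Krt14* also lie inside their genes by that start, so their 0 matches do not describe the bases before it. The 30 bases around the match of *Krt18* and of *Snai1* are as follows, each 5' to 3' along its gene, at chr15:102027990-102028019 and chr2:167538057-167538086, both on the plus strand.
Krt18: aggggctaacacCACCTGctatcctttgtg
Snai1: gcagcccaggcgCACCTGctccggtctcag

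*Cdh1* encodes E-cadherin, the adhesion molecule of adherens junctions. It was read at 32.7, 11.6 and 17.1 in control and at 10.8, 8.21, 19.2 and 9.66 with DOX. DOX+IL-17A gave 19.0, 9.43 and 13.2 and IL-17A gave 13.5, 14.1 and 11.9. All 4 groups overlapped, and the highest value, in control replicate 1, lay well above the others. The log2 fold change with DOX was -0.67 (95% confidence interval -1.45 to 0.11, adjusted p = 0.199 in limma), and -0.29 without control replicate 1. Behind these values stood 75 to 211 reads per library. *Cdh1* lies on chromosome 8 from 106603351 to 106670246 on the plus strand.

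*Krt8* and *Krt18* encode the keratin pair of simple and luminal epithelium, whose products polymerize together. They lie on chromosome 15 in opposite directions, *Krt8* from 101996698 to 102004482 on the minus strand and *Krt18* from 102028180 to 102032027 on the plus strand, so that their starts face each other across 23698 bases. *Krt8* was read at 329, 419.9 and 472 in control and at 273, 239, 228 and 260.0 with DOX. DOX+IL-17A gave 279, 228 and 287, and IL-17A gave 345, 341 and 419. Every library with DOX was below every library without it. *Krt8* was 1.63-fold lower with DOX (log2 fold change -0.69 ± 0.18, adjusted p = 0.0136, limma) and 1.54-fold lower with DOX+IL-17A than in control (-0.61 ± 0.19, adjusted p = 0.0387), so both passed the adjusted p but stayed under the fold threshold. The first of these lost the adjusted p without control replicate 5 (0.0674). The second was less stable. It lost the adjusted p without control replicate 3 or 5, any of the 4 DOX libraries, DOX+IL-17A replicate 2 or 3 or IL-17A replicate 3 (adjusted p from 0.0516 to 0.141), with scaling by library size (0.118) and with only the groups compared (0.186). Against IL-17A alone the adjusted p of DOX+IL-17A was 0.114, and 0.0431 without control replicate 1.

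*Krt18* was read at 342, 296 and 352 in control and at 189, 171, 170.3 and 187 with DOX, with no overlap. DOX+IL-17A gave 102, 81.4 and 202, and IL-17A gave 261, 236 and 375. In DOX+IL-17A replicates 2 and 3 the level was below every DOX library, while replicate 5 was above all of them. With DOX alone *Krt18* was 1.84-fold lower (log2 fold change -0.87 ± 0.26, adjusted p = 0.0248, limma). The adjusted p was lost without control replicate 5 (0.0758), DOX replicate 2 (0.0562) or DOX replicate 3 (0.0606), and without both control replicate 1 and DOX replicate 1 (0.059). With DOX+IL-17A it was 2.57-fold lower than in control (-1.46 ± 0.28, adjusted p = 0.00275), which held in each of the 23 alternatives, and 2.26-fold lower than with IL-17A alone (-1.25 ± 0.28, adjusted p = 0.00905), which lost the fold threshold without DOX+IL-17A replicate 3 (-0.98). The difference between DOX+IL-17A and DOX was -0.59 (95% confidence interval -1.13 to -0.04) and did not pass after adjustment (unadjusted p = 0.037, adjusted p = 0.727, limma). It was the only one of the 9 genes under an unadjusted p of 0.05 in that comparison, against 6.35% of all genes.

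The ratio of *Krt18* to *Krt8* within a library describes this without a test. It was 1.04, 0.704 and 0.747 in control and 0.692 to 0.747 with DOX. It was 0.368 and 0.358 in DOX+IL-17A replicates 2 and 3 and 0.702 in replicate 5. With IL-17A alone it was 0.757, 0.691 and 0.894. The DOX libraries were close together, and 2 of the 3 DOX+IL-17A libraries had the lowest ratios of all 13.

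**Figure D2:**
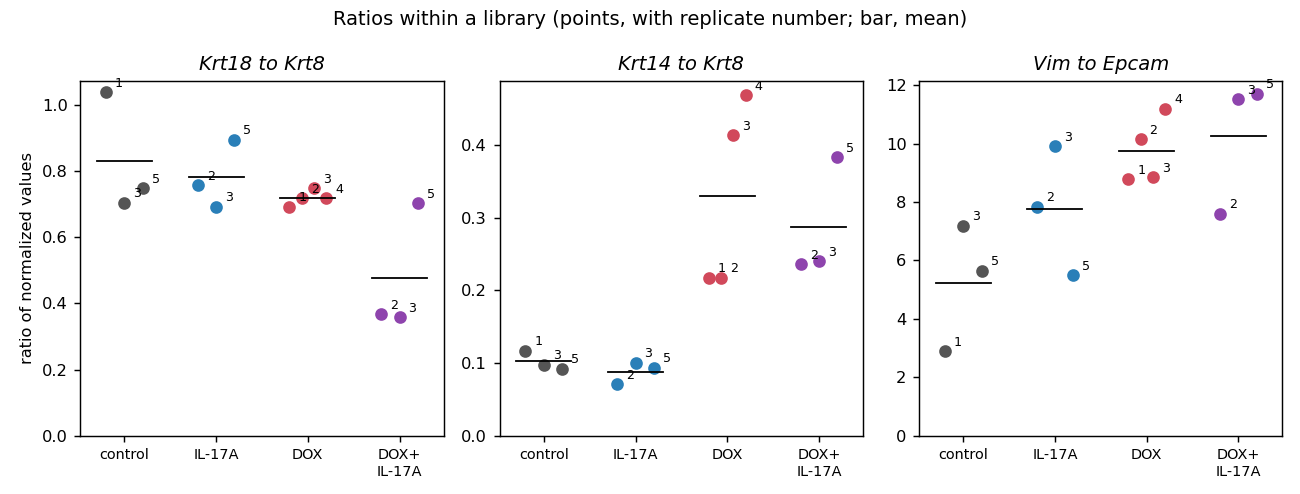
Ratios of normalized values of 2 genes within a library (points, labeled with the replicate number; bars, group means) by condition. The lowest *Krt18* to *Krt8* ratios are those of DOX+IL-17A replicates 2 and 3, and *Krt14* to *Krt8* is 0.218 or more in every library with DOX and 0.117 or less in every library without it.

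*Krt14* encodes a keratin of basal and myoepithelial cells, and it moved the other way. Its gene lies on chromosome 11 from 100203162 to 100207548 on the minus strand. The control libraries gave 38.6, 41.0 and 43.6 and the DOX libraries 59.6, 52.0, 94.2 and 122. DOX+IL-17A gave 65.8, 54.7 and 110.1, and IL-17A gave 24.3, 34.3 and 39.2. Every library with DOX was above every library without it. The mean was 41.1 ± 2.52 (SD, n = 3) in control and 81.9 ± 32.3 (n = 4) with DOX, a ratio of means of 1.99. *Krt14* had a log2 fold change of 0.90 ± 0.30 there (adjusted p = 0.0454, limma), under the fold threshold. It passed both thresholds with scaling by library size and without either DOX replicate 1 or 2 (log2 fold changes 1.07, 1.02 and 1.08), and lost the adjusted p without control replicate 1, 3 or 5, DOX replicate 3 or 4, DOX+IL-17A replicate 2 or IL-17A replicate 3 (adjusted p from 0.0535 to 0.138). DOX+IL-17A was 2.36-fold higher than IL-17A alone (1.18 ± 0.32, adjusted p = 0.0266) and was called, and 1.87-fold higher than control without passing (0.83 ± 0.32, adjusted p = 0.0903). The call against IL-17A alone was lost without DOX+IL-17A replicate 2 or 5 or IL-17A replicate 2 or 3, where adjusted p was 0.0557 to 0.102. The ratio of *Krt14* to *Krt8* was 0.0925 to 0.117 in control, 0.218 to 0.468 with DOX, 0.236 to 0.383 with DOX+IL-17A and 0.0706 to 0.1004 with IL-17A.

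*Vim* encodes vimentin, the intermediate filament protein of mesenchymal cells, on chromosome 2 from 13573927 to 13582826 on the plus strand. It was read at 2119.6, 3107 and 2559.7 in control and at 1808, 2078, 1529 and 1801 with DOX. DOX+IL-17A gave 1576, 1879 and 1454, and IL-17A gave 3404, 3792 and 2274. Every library with DOX was below every library without it, although control replicate 1 and DOX replicate 2 nearly touched. The log2 fold change was -0.52 with DOX (SE 0.23, adjusted p = 0.116, limma) and -0.66 with DOX+IL-17A (95% confidence interval -1.17 to -0.14, adjusted p = 0.0752). Without control replicate 1 these were -0.65 (adjusted p = 0.0464) and -0.79 (adjusted p = 0.0255). Against IL-17A alone *Vim* was 1.93-fold lower with DOX+IL-17A (-0.92 ± 0.24, adjusted p = 0.0217), passing the adjusted p but not the fold threshold. The adjusted p was lost without DOX+IL-17A replicate 2 or 5 or IL-17A replicate 2 or 3 (0.0567 to 0.103), with scaling by library size (0.0688) and with only the groups compared (0.0516). *Vim* passed both thresholds without DOX+IL-17A replicate 3 (-1.03, adjusted p = 0.04, limma) and without IL-17A replicate 5 (-1.14, adjusted p = 0.0157).

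*Fn1* encodes fibronectin, an extracellular matrix glycoprotein, on chromosome 1 from 71585520 to 71653200 on the minus strand. It was read at 641, 643 and 703 in control and at 449, 528, 365 and 323 with DOX. DOX+IL-17A gave 493, 516 and 399, and IL-17A gave 419, 583 and 597. All other libraries lay below the 3 controls. *Fn1* was 1.59-fold lower with DOX (log2 fold change -0.69 ± 0.21, adjusted p = 0.0248, limma). This adjusted p was lost without control replicate 5 (0.0771), DOX replicate 3 (0.0722) or DOX replicate 4 (0.0835) and with scaling by library size (0.0828). The differences of DOX+IL-17A (-0.50, adjusted p = 0.124) and IL-17A (-0.33, adjusted p = 0.959) from control did not pass. With IL-17A alone *Fn1* was the only one of the 9 genes whose libraries did not overlap those of control, against 6.04% of all genes.

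Ratios of mesenchymal to epithelial transcripts depended on the epithelial gene chosen. *Vim* to *Epcam* was 2.89, 7.18 and 5.65 in control and 8.79 to 11.2 with DOX, with no overlap. It was 7.60 to 11.7 with DOX+IL-17A and 5.50 to 9.90 with IL-17A, which overlapped. *Vim* to *Krt8* was 5.43 to 7.40 in control and 6.61 to 8.70 with DOX, which overlapped. These ratios are descriptions of the libraries and carry no test.

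Among the transcription factors, *Snai1* (chromosome 2, 167538195 to 167542814, plus strand) encodes SNAIL, a zinc finger repressor of *Cdh1*. It was read at 4.06, 19.8 and 12.7 in control and at 24.7, 22.0, 25.6 and 25.2 with DOX. DOX+IL-17A gave 30.3, 20.8 and 7.68, and IL-17A gave 19.8, 28.8 and 7.79. The DOX libraries were close to each other and above all controls, while the other groups spread widely and overlapped. The log2 fold change with DOX was 1.16 ± 0.51 (adjusted p = 0.112, limma). It was 0.58 without control replicate 1 (adjusted p = 0.398) and 1.604 without control replicate 3 (adjusted p = 0.0408). Its size thus depended on which control library was left out, and it was called only without control replicate 3.

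*Zeb1* encodes a zinc finger and homeodomain repressor of epithelial genes and was close to the limit of detection. Its reads were 0, 1 and 0 in the control libraries and 3, 15, 7 and 10 with DOX. DOX+IL-17A gave 8, 0 and 19 reads, and IL-17A gave 0 in all 3 libraries, where 3 reads in the pooled group correspond to 0.109 units. Each DOX library held more reads than any library without DOX, and DOX+IL-17A replicate 3 held none. Pooled over libraries, 35 reads with DOX against 1 in control gave a ratio of 27.0, with an exact 95% counting interval of 4.54 to 1098, and 27 against 1 with DOX+IL-17A gave 26.9 (4.43 to 1100). The pooled DOX+IL-17A reads were 7.97-fold above a floor of 3 reads over the IL-17A group, a ratio given without an interval. These intervals cover counting error only. Across libraries the differences did not pass in limma on the log2(value + 1) scale, which understates changes of so low a gene. Against control the log2 fold changes were 0.88 after DOX (adjusted p = 0.102, limma) and 0.81 when both agents were given (adjusted p = 0.17). DOX+IL-17A against IL-17A alone gave 0.84 (95% confidence interval -0.004 to 1.69, adjusted p = 0.177, limma), and their libraries overlapped. *Zeb1* was called with DOX+IL-17A against control without DOX+IL-17A replicate 3 (1.23, adjusted p = 0.0489), and against IL-17A alone in DESeq2 (adjusted p = 0.0343).

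**Figure D3:**
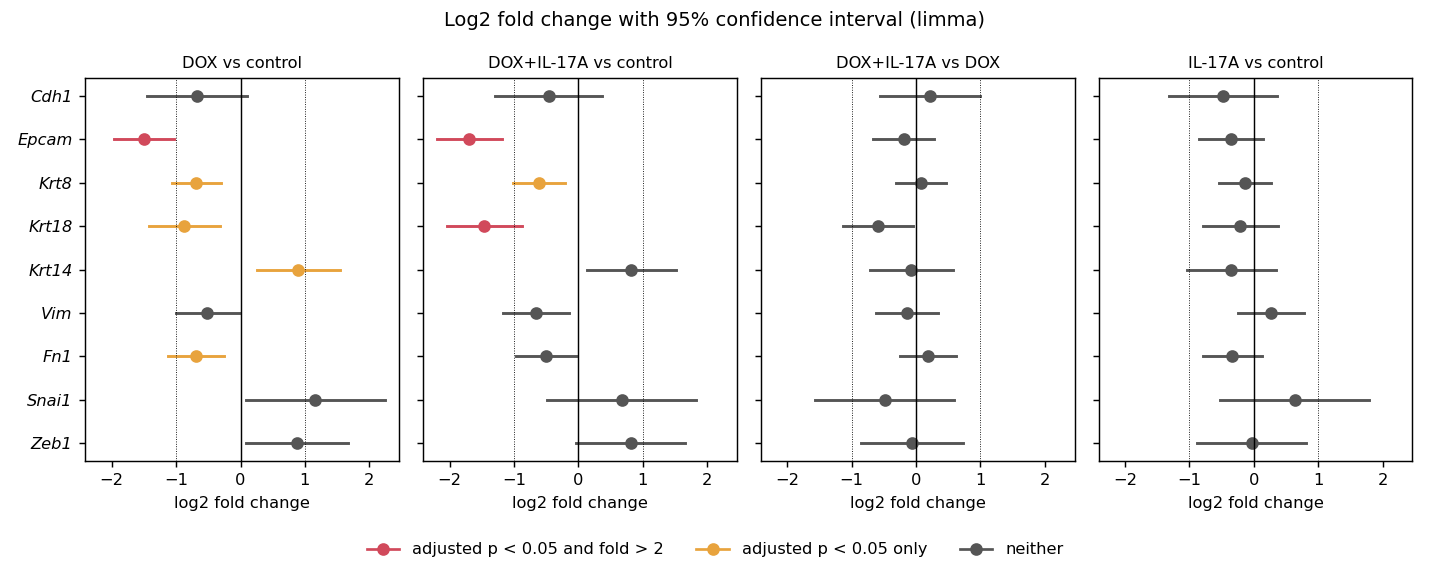
Log2 fold change (points) with 95% confidence interval (lines) of the 9 listed genes from limma in 4 comparisons, dotted at a fold of 2 either way. Red marks genes called, orange those passing the adjusted p alone, and gray the rest. With DOX+IL-17A against DOX and with IL-17A against control all 9 are gray.

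The list of transcription factors of this transition and their epithelial opponents held 22 genes, of which 18 were tested. With DOX 4 of 18 rose and 1 fell, 27.8% in all beside 15.3% of all genes (9.15% higher and 6.18% lower). The 4 that rose were *Klf4*, *Foxa1* and *Grhl1*, which are epithelial factors, and *Prrx1*, a mesenchymal one. *Tcf4*, an E-box binding factor that favors the mesenchymal state, fell. *Klf4* went from 22.2 ± 5.29 (SD, n = 3) in control to 73.5 ± 6.47 (n = 4) with DOX (log2 fold change 1.71, adjusted p = 0.000678, limma). It was 30.7 ± 6.53 with DOX+IL-17A, where its difference from DOX was -1.25 with an adjusted p of 0.0625, just past the threshold. It was called without control replicate 1 and without IL-17A replicate 2, and with voom, DESeq2 and a fit of the groups compared alone. *Tcf4* went from 439.98 ± 30.8 in control to 219 ± 38.0 after DOX (-1.02, adjusted p = 0.00126). It was 197 ± 13.4 when both agents were given (-1.15, adjusted p = 0.00118) and 404 ± 35.6 with IL-17A. Its change with DOX was -0.96 without control replicate 1, -0.89 without DOX replicate 3 and -0.84 with scaling by library size. Each of these is under the fold threshold. *Foxa1*, a luminal pioneer factor, went from 1.43 ± 1.93 in control to 7.41 ± 0.80 after DOX (2.07, adjusted p = 0.0115). It was 13.8 ± 9.98 when both agents were given (2.69, adjusted p = 0.0048). Without both control replicate 1 and DOX replicate 1 its adjusted p with DOX was 0.0588 (limma). *Grhl1* (0.405 ± 0.365 to 2.90 ± 1.57) and *Prrx1* (0.157 ± 0.272 to 1.62 ± 0.75) were near the limit of detection, and their calls with DOX were lost in 18 of 23 and 10 of 22 alternatives. The count of 5 called fell to 2 without control replicate 1, and to 2 without both that library and DOX replicate 1. It also fell to 2 without DOX replicate 3 and to 3 without control replicate 5 or DOX replicate 1, 2 or 4.

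The other factors of that list did not pass in any comparison with control, with one exception. *Gata3*, a luminal factor, passed the adjusted p alone with DOX+IL-17A (log2 fold change -0.73, adjusted p = 0.0212, limma). With DOX the values were -0.49 for *Zeb2*, 0.52 for *Snai3*, 0.54 for *Twist1* and -0.58 for *Foxc2* among the mesenchymal factors. Among the epithelial ones they were -1.03 for *Esrp1* (adjusted p = 0.0544), -0.71 for *Esrp2*, -0.57 for *Grhl2*, -0.10 for *Ovol1*, 1.08 for *Ovol2*, -0.64 for *Elf3* and -0.43 for *Gata3*. Against control, DOX+IL-17A called 2 of 18 (*Foxa1* and *Tcf4*), and against IL-17A alone 2 of 18, the same genes. Both are 11.1% of the list, near the 12.9% and 9.84% of all genes. The latter count was 0 without DOX+IL-17A replicate 2 or without IL-17A replicate 5, and the former 4 without DOX+IL-17A replicate 3. The median of the 18 with DOX was 0.21, beside 0.09 for all genes.

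Of 34 other epithelial genes tested, 10 fell with DOX and 1 rose, which is 32.4% called beside 15.3% of all genes, and their median log2 fold change was -0.40. Those that fell were *Dsp*, *Dsc2*, *Pkp2* and *Pkp3*, which encode desmosome proteins, *Ppl* and *Evpl* of the cornified envelope, *Itgb4* and *Lad1* of basement membrane anchorage, *Krt19* and *Prss8*. Other desmosome genes of the list did not pass, with log2 fold changes of 0.33 for *Jup*, 0.04 for *Pkp1* and -0.60 for *Dsg2*. The level of *Prss8*, a membrane serine protease gene, was 19.2 ± 1.79 (SD, n = 3) in control and 2.39 ± 0.62 (n = 4) after DOX, a log2 fold change of -2.59 (adjusted p = 0.000413, limma). *Krt19* fell from 199.5 ± 71.6 to 44.3 ± 5.71 (-2.08, adjusted p = 0.000106). *Cgn*, a tight junction protein gene, rose from 83.2 ± 41.7 to 182 ± 9.64 (1.25, adjusted p = 0.0209). This call was lost without control replicate 1 (0.82, adjusted p = 0.0732, limma). The count of 11 was 5 without control replicate 1 and 5 without both doubted libraries, and 7 with scaling by library size. Under DOX+IL-17A 9 fell against control and 1 rose (29.4%, beside 12.9% of all genes, 6.95% higher and 5.95% lower). The 1 that rose was *Muc1*, from 0.63 ± 0.60 to 5.14 ± 0.28 (1.98, adjusted p = 0.0144). Against IL-17A alone 7 fell and 1 rose (23.5%, beside 9.84% of all genes, 4.92% in each direction).

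Among 11 catenins and other partners of E-cadherin, 3 fell with DOX and none rose (27.3% called, beside 15.3% of all genes, 6.18% lower), with a median log2 fold change of -0.01. *Nectin4*, a nectin adhesion molecule, went from 8.31 ± 1.45 to 1.09 ± 0.38 (change -2.17 in log2, adjusted p = 0.000834, limma), and *Ctnna1*, alpha-catenin, from 231 ± 105 to 80.3 ± 9.57 (-1.43, adjusted p = 0.00152). *Vezt* was the third, at -1.003 (adjusted p = 0.00984). The beta-catenin gene *Ctnnb1* was 681 ± 234 in control and 749 ± 157 with DOX (0.18, adjusted p = 0.632). The same 3 genes fell with DOX+IL-17A against control and against IL-17A alone. This is 27.3% each time, beside 12.9% and 9.84% of all genes (5.95% and 4.92% lower). Without control replicate 1 the change of *Ctnna1* against control was -0.98, under the fold threshold. In the comparison with IL-17A alone the count was 0 without DOX+IL-17A replicate 3 and 1 without DOX+IL-17A replicate 2 or IL-17A replicate 3 or 5.

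**Figure D4:**
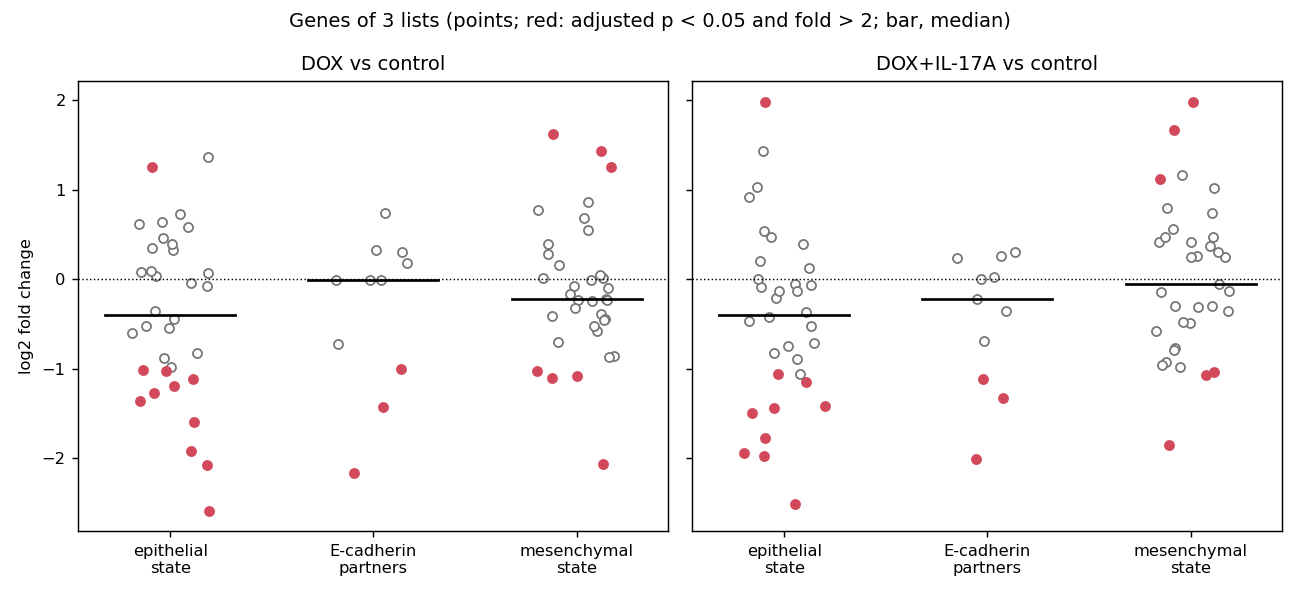
Log2 fold change of each tested gene (points) of the lists of 34 epithelial genes, 11 E-cadherin partners and 35 mesenchymal genes, with DOX and with DOX+IL-17A against control. Red points were called and bars are list medians. Called epithelial genes lie mostly below 0, while called mesenchymal genes lie on both sides.

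Of 35 other mesenchymal genes tested, 3 rose with DOX, *Loxl2* and *Fstl1* among them, and 4 fell (*Tpm2*, *Col5a1*, *S100a4* and *Itgav*). This is 20% in all, near the 15.3% of all genes (9.15% higher and 6.18% lower), with a median log2 fold change of -0.23. *Tpm2*, a tropomyosin gene, went from 23.7 ± 8.89 (SD, n = 3) to 6.03 ± 6.03 (n = 4), a log2 fold change of -2.06 (adjusted p = 0.00763, limma). *Col5a1* went from 87.2 ± 7.82 to 39.9 ± 3.94 (-1.11, adjusted p = 0.00274). *Loxl2*, a collagen crosslinking enzyme gene, went from 2.25 ± 2.53 to 6.92 ± 1.35 (1.62, adjusted p = 0.0269), and this call was lost in 11 of 23 alternatives. Without control replicate 1 the DOX count was 4, as it was without both doubted libraries, without DOX replicate 2 and without DOX replicate 4, and it was 3 without DOX replicate 3. Under DOX+IL-17A 3 rose and 3 fell against control (17.1%, beside 12.9% of all genes, 6.95% higher and 5.95% lower). *Mmp14* was among those that fell (-1.07, adjusted p = 0.0061), and 3 were called without DOX+IL-17A replicate 3. Against IL-17A alone 4 rose and 1 fell (14.3%, beside 9.84% of all genes, 4.92% in each direction). This count was 2 without DOX+IL-17A replicate 3 or 5 or IL-17A replicate 3. It was 3 without DOX+IL-17A replicate 2 or IL-17A replicate 2 or 5, and 8 without control replicate 1. *Fbn1*, fibrillin, rose in that comparison (1.71, adjusted p = 0.0205) and *S100a4* fell (-1.32, adjusted p = 0.00379).

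TGF-beta is the classical inducer of this transition. Of 19 tested ligands, receptors and responders, 1 rose with DOX and 1 fell, *Ltbp2*, which encodes a latent TGF-beta binding protein (log2 fold change -1.39, adjusted p = 0.0115, limma, and -0.92 without control replicate 1). The ligand gene *Tgfb2* went from 10.1 ± 2.42 (SD, n = 3) with IL-17A to 30.6 ± 2.47 (n = 3) with DOX+IL-17A (1.53, adjusted p = 0.00289). It was 16.3 ± 3.83 in control and 30.1 ± 5.79 (n = 4) with DOX, a difference that passed the adjusted p alone (0.84, adjusted p = 0.0281). *Ltbp3* fell with DOX+IL-17A against control (-1.19, adjusted p = 0.0412) and against IL-17A alone (-1.47, adjusted p = 0.0196), the first of which was lost in 10 of 23 alternatives. Counts of called genes in this list were 2 with DOX (10.5%, beside 15.3% of all genes) and 2 with DOX+IL-17A against control (10.5%, beside 12.9%). Against IL-17A alone there were 3 (15.8%, beside 9.84%). Leaving out 1 library gave 1 to 4, 1 to 3 and 1 to 4. With DOX it was 4 without control replicate 3 and 1 without DOX replicate 3 or 4, and against IL-17A alone 1 without DOX+IL-17A replicate 3 or 5. Against control the DOX+IL-17A count was 1 without DOX+IL-17A replicate 3 or 5, IL-17A replicate 3 or DOX replicate 1, 2 or 4.

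The table listed 18 keratin genes, of which 11 were tested. With DOX 2 rose, *Krt17* and *Krt16*, and 2 fell, *Krt15* and *Krt19*, 36.4% in all beside 15.3% of all genes. *Krt16* and *Krt17* are induced in stressed and regenerating epithelium. *Krt17* went from 0.122 ± 0.211 (SD, n = 3) in control to 3.86 ± 1.55 (n = 4) with DOX (log2 fold change 2.06, adjusted p = 0.00218, limma), and *Krt16* from 2.75 ± 2.75 to 12.3 ± 3.52 (2.03, adjusted p = 0.00685). *Krt15*, a basal keratin, went from 9.12 ± 1.55 to 1.102 ± 1.81 after DOX (-2.59, adjusted p = 0.00134) and to 0.0993 ± 0.172 when both agents were given (-3.20, adjusted p = 0.000694), the last of which is under the floor of 3 reads. Of the 2 keratins named as basal here, *Krt15* fell with DOX and *Krt14* rose without being called (0.90, adjusted p = 0.0454, limma). *Krt17* and *Krt16* had lower means with DOX+IL-17A than with DOX, 0.811 ± 0.554 and 7.14 ± 2.29, and neither difference passed (-1.41, adjusted p = 0.247, and -0.72, adjusted p = 0.973). *Krt80* rose under DOX+IL-17A against control (1.53, adjusted p = 0.0197), and *Krt15*, *Krt19* and *Krt18* fell. These 4 are 36.4% of the tested keratins, beside 12.9% of all genes (6.95% higher and 5.95% lower). The *Krt80* call was lost in 6 of 23 alternatives, while those of *Krt15*, *Krt19* and *Krt18* held in each. With DOX the *Krt15* call was lost in DESeq2 (adjusted p = 0.106), and those of *Krt16*, *Krt17* and *Krt19* held in all 23. The simple keratin *Krt7* was 607 ± 76.4 in control and 306 ± 13.04 with DOX (-0.98, adjusted p = 0.00097), passing the adjusted p alone. How reads shared between similar keratin genes were assigned is not given in the sources used here, so values of *Krt14*, *Krt16* and *Krt17* are uncertain to that extent. In the limma fit of log2(value + 1) over all 13 libraries, no gene of these lists was called when IL-17A was added to DOX or given alone.

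**Figure D5:**
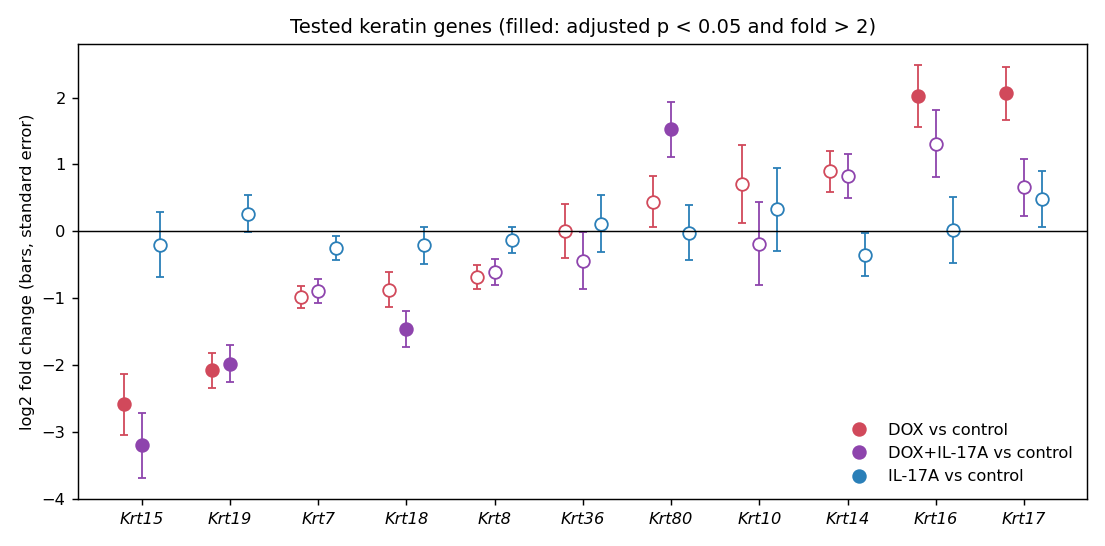
Log2 fold change (points) with standard error (bars) of the 11 tested keratin genes with DOX, DOX+IL-17A and IL-17A against control, ordered by the DOX value. Filled points were called. *Krt15* and *Krt19* lie lowest and *Krt16* and *Krt17* highest with DOX.

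IL-17A given alone left all 9 genes uncalled by limma, with adjusted p from 0.959 to 0.997 and 0 under an unadjusted p of 0.05, against 3.08% of all genes. The 1 gene called over the whole table was *Ehf*, an epithelial ETS factor gene that is on none of the lists here and was named after its value was seen (log2 fold change 2.22). The confidence intervals bound these changes. On the log2 scale they ran from -0.85 to 0.15 for *Epcam*, -0.79 to 0.38 for *Krt18*, -1.04 to 0.34 for *Krt14*, -0.25 to 0.78 for *Vim* and -0.52 to 1.79 for *Snai1*. For the interaction, 0 of 9 genes and 0 of all genes passed in limma, with 0 and 556 (4.51%) under an unadjusted p of 0.05, and over all genes DESeq2 called 18 and edgeR's quasi-likelihood test 0. The interaction was 0.52 for *Fn1* (interval -0.12 to 1.16), -0.38 for *Krt18* (-1.18 to 0.42) and -1.12 for *Snai1* (-2.71 to 0.46). When IL-17A was added to DOX, 0 of 9 genes passed and the intervals were -1.13 to -0.04 for *Krt18*, -0.72 to 0.57 for *Krt14*, -0.62 to 0.34 for *Vim* and -1.57 to 0.59 for *Snai1*.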

How the data were processed

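The authors sequenced QuantSeq 3' libraries as single 75 base reads, mapped them to mm10 with STAR and counted them per gene with featureCounts. The deposited signal is their TMM-normalized CPM, for 13223 entries. A repeated entry was dropped. Within each library all values were whole multiples of 1 read to within 0.001, so reads were recovered. The 10 genes and the lists were chosen with earlier results of these data known.

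The test was limma 3.58.1 (trend option) applied to log2(value + 1) of all 13 libraries with a term for condition alone, over 12319 genes kept by filterByExpr of edgeR 4.0.16. Adjustment followed Benjamini and Hochberg over all of them. The 10 genes are named in every comparison, the transcription factors throughout, and up to 2 called genes in each direction from other lists, with further called genes named after their values were seen. Alternatives were voom, DESeq2 1.42.0, edgeR's quasi-likelihood test, other scalings, filters, pseudocounts and samples. On simulated data for DOX against control the test recovered 79.5% of 200 genes changed 4-fold among 12319, with 11 false calls. The changed genes were drawn only from those above a minimum of expected reads, so the share does not cover genes near the limit of detection. Smaller changes and outlying libraries were not simulated. Promoters came from RefSeq and positions from GENCODE. Some listed items are not reported here.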

Additional observations from a re-analysis of the deposited data

How the results depend on the processing

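Alternatives changed 1 choice at a time, and edgeR's quasi-likelihood test and the fit without both control replicate 1 and DOX replicate 1 were added after the data were seen. The cause of the changes below was not tested. The count of the 9 genes called with DOX against control was 1, and 2 with scaling by library size, 5 at the adjusted p alone and 1 to 2 on leaving out 1 library. The counts at the adjusted p alone were less stable: 5 with DOX became 1 without control replicate 5 (*Epcam* remained), 2 without DOX replicate 3, 3 without DOX replicate 4 and 3 without both libraries added above. Against IL-17A alone 4 became 2 without DOX+IL-17A replicate 2 or 5 or IL-17A replicate 2 or 3. Scaling by library size moved the median of all genes with DOX from 0.09 to 0.24. It moved the list counts with DOX from 11 to 7 (epithelial) and from 7 to 4 (mesenchymal). With only the groups compared the catenin list had 1 instead of 3 called under DOX+IL-17A. For DOX+IL-17A against DOX the transcription factor list had 1 called instead of 0 with voom, DESeq2, only the groups compared and without control replicate 1 or IL-17A replicate 2. The epithelial list had 1 called there with only the groups compared. With DESeq2 the mesenchymal list had 1 called with IL-17A against control.

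Over all genes, 1589 were called with DOX+IL-17A against control and 599 in a fit of these groups only. Between DOX+IL-17A and DOX 54 were called, 93 with DESeq2, 23 with a pseudocount of 0.1, 87 with only the groups compared, 35 with edgeR's quasi-likelihood test, 85 without both libraries and 1 to 88 on leaving out 1 library. With IL-17A against control 1 was called, 13 with DESeq2, 0 with voom, library size scaling, no filter, a pseudocount of 0.1, only the groups compared and edgeR's quasi-likelihood test, and 0 to 2 on leaving out 1 library. Against IL-17A alone, where DOX+IL-17A called 1212, leaving out 1 library gave 689 to 1589. For the interaction it was 0, 18 with DESeq2 and 0 to 1 on leaving out 1 library.

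Signs turned only in differences that were never called. Between DOX+IL-17A and DOX these were *Cdh1* (-0.023 to 0.45 on leaving out 1 library), *Krt14* (-0.36 to 0.15), *Zeb1* (0.016 with DESeq2, -0.34 to 0.36) and *Snai1* (-0.88 to 0.042). Against IL-17A alone they were *Cdh1* (-0.031 with voom, -0.22 to 0.25), *Snai1* (-0.0501 with voom, -0.46 to 0.57) and *Fn1* (0.049 with library size scaling). For the interaction they were *Epcam* (-0.033 without both libraries, -0.084 to 0.35), *Krt14* (-0.0102 to 0.49) and *Zeb1* (0.87 with DESeq2, 1.72 with edgeR's quasi-likelihood test, -0.31 to 0.39).

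Replicate numbers recur across conditions in the labels without a stated meaning. Deviations of 13 same-numbered pairs correlated at 0.15 on average (-0.18 to 0.49, 8 above 0.1). Those of 50 other pairs averaged -0.04 (-0.56 to 0.47, 13 above 0.1), and 7 of 12 libraries correlated best with their own number. Same-numbered pairs were thus higher on average, but 5 of 13 did not exceed 0.1, and the numbers were not taken as pairs. With the replicate number as a block, calls over all genes were 14 with DOX+IL-17A against DOX and 0 with IL-17A against control. Of the 9 genes 2 passed the adjusted p alone with DOX (*Epcam* and *Krt14*), while *Krt8* (0.0507), *Krt18* (0.0569) and *Fn1* (0.116) lost it, as did *Krt8* with DOX+IL-17A against control (0.0579). The DOX+IL-17A minus DOX difference of *Krt8* was -0.0054 and the *Zeb1* interaction 0.071.

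Depth limits *Zeb1*, *Grhl1*, *Prrx1*, *Krt15*, *Krt17* and *Muc1*, which lay near 3 reads in at least 1 group. Groups of 3 and 4 libraries leave wide intervals for *Cdh1* and *Snai1*.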

Other observations

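The tested genes most like each of the 9 over the 13 libraries, by Pearson correlation of log2(value + 1), are given as a description. The libraries share conditions and depth, and with 12319 candidates some high values are expected whatever the gene. *Epcam* was closest to the pseudogenes *Gm10362* (0.98) and *Rpl17-ps9* (0.98), *Krt8* to *Sfmbt2* and *Col16a1* (0.95 each), *Krt18* to *Mien1* (0.97) and *Stxbp2* (0.96), and *Krt14* to *Tex11* (0.93) and *Trp53cor1* (0.91), both listed at 0 in all libraries without DOX. *Vim* was closest to *Ncoa6* and *Rab2a* (0.95 each), *Fn1* to *Ilvbl* and *Gm8317* (0.92 each), *Cdh1* to *Msl2* (0.87) and *Sik2* (0.86), *Snai1* to *Tmem87a* and *Pxdc1* (0.97 each), and *Zeb1* to *Aste1* and *Grhl1* (0.93 each).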
